A study of Mus musculus with 9 samples.

Results

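The introns described here held more reads than expected in mouse embryonic stem cells at the start of the experiment, yet the authors did not class them as detained and gave them no value at the later time. They were chosen by measured values: an observed mean of at least 30 reads and at least 2 times the expected mean in both groups at 0 h, with no DMSO mean at 2 h. Of the 22228 introns in the authors' deposited table, 648 met this rule, which is 2.92% of the introns. They lay in 600 of 7016 genes, or 8.55% of the genes. In 557 genes 1 intron qualified, in 38 genes 2 did and in 5 genes 3 did.

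Polyadenylated RNA of v6.5 mouse embryonic stem cells was sequenced by a strand-specific, paired-end method. KH-CB19, which inhibits Clk kinases, was given in dimethyl sulfoxide (DMSO). The labels write its final dose as 10 mM, a unit that could not be checked here and may be a slip. Control cells received the solvent without KH-CB19, and both were collected at 0 h and 2 h. Each of the 4 groups held 2 libraries that the labels call biological replicates, and no allele or deletion is named in the labels for any group. All groups that were set against each other therefore share the cell line and the DMSO. The ninth library, from untreated cells, has no column in the table and was not analysed here. The authors deposited group means only, so a mean below stands for 2 libraries, its spread is unknown, and no test of KH-CB19 against DMSO was possible at 0 h.

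Most introns are removed while or shortly after the gene is transcribed, before the mature mRNA leaves the nucleus. A detained intron is one that stays in an otherwise spliced, polyadenylated transcript, which is kept in the nucleus and may be spliced later. Clk kinases phosphorylate the SR proteins, which bind exons and help the spliceosome find splice sites. Some introns carry further genes: small nucleolar RNAs (snoRNAs), which guide the modification of other RNAs, and microRNAs (miRNAs), which pair with mRNAs through a short seed, are cut out of introns of their host genes.

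The sequences below show what lay inside or beside the members. Same-strand miRNA genes lay inside 2 of the 597 members that could be matched to an annotated intron (0.335%), against 12 introns with 2 h values and 106 of the whole table (0.517%). All 4 of these miRNA genes were in the RefSeq table (GRCm38.p6). Capitals mark the seed, bases 2 to 8, in 5′ to 3′ sequences. Intron 17 of Mcm7, a subunit of the replicative helicase, holds Mir106b, Mir93 and Mir25 on chromosome 5, minus strand.
mmu-miR-106b-5p: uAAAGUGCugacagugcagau
mmu-miR-93-5p: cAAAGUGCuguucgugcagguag
mmu-miR-25-3p: cAUUGCACuugucucggucuga
The first 2 share the seed AAAGUGC, while mmu-miR-25-3p has the seed AUUGCAC. Intron 3 of Ppp1r10, a regulatory subunit of protein phosphatase 1 in the nucleus, holds Mir1894 on chromosome 17, plus strand, with seeds that match neither.
mmu-miR-1894-5p: cUCUCCCCuaccaccugccucu
mmu-miR-1894-3p: gCAAGGGAgagggugaagggag

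Same-strand snoRNA genes lay inside 8 matched members (1.34%), against 14 of the introns with 2 h values (0.466%) and 155 of the whole table (0.756%). The 2 shown are from GENCODE M21 (GRCm38): Snord91a inside intron 11 of Tsr1, a ribosome assembly factor, on the plus strand at chr11:74905424-74905516, and Gm22858 inside intron 13 of Wdr43, a nucleolar protein of ribosome assembly, on the plus strand at chr17:71641584-71641659. Capitals mark the letters TGATG and CTGA, searched on the given strand only, which are the cores of the box C and box D motifs of one snoRNA class; no 2 marked motifs overlap.
Snord91a: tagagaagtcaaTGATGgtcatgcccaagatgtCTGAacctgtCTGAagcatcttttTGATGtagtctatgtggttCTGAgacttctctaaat
Gm22858: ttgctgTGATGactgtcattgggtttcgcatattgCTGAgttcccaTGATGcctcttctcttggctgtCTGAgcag
The 2 snoRNA genes were picked as examples without a set rule, and the snoRNA genes inside the other members are not shown. Both words occurred together in 504 of the 1529 snoRNA and scaRNA genes of GENCODE M21 (33.0%), so the match is a description of these letters. Members were longer at the median than introns with 2 h values, and the shares with a snoRNA gene were not split by length.

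The exon bases joined when a member is removed are shown for 7 of the members with the largest ratios that lie between coding exons: 15 bases of the upstream exon and 15 of the downstream exon, from GENCODE M21 (GRCm38), 5′ to 3′ on the coding strand. Capitals mark the last 3 bases of the upstream exon and the first base of the downstream exon.
Gphn intron 2: ccaagatccttcTTTGttgggtgggactat
Hdac4 intron 24: ctgctgggaaacGAGCttgagcctctgcca
Mtbp intron 16: acacattcaacgGGGGgaaaagccttttgt
Qk intron 10: ccagtggtgtgtTAGGtgcggtggctacta
Rbm26 intron 25: cctgatgaagagGAATttcaggaagagtct
Dlg1 intron 23: cgagtgatgctgACCAgcacgtaacttcta
Anxa6 intron 20: caggaagatgccCAGGtggctgctgagatc
Over all matched members the upstream exon ended in G in 77.1%, against 78.0% beside introns with 2 h values and 79.1% in the table. It ended in CAG in 21.8%, 22.3% and 22.8% of these groups of introns. The downstream exon began with G in 42.9% of members, 45.3% of introns with 2 h values and 47.7% of the table. The exon edges of members were thus close to those of all introns, and the flanking exons had median lengths of 120 and 126 bp, against 121 and 124 bp beside introns with 2 h values.

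The table covers these cells as follows. The observed 0 h means summed to 1002850 reads in KH-CB19 and 1286589 in DMSO, and the median intron had a KH-CB19 to DMSO log2 ratio of -0.32, which was subtracted from the log2 ratios between the 2 groups at 0 h given below. Members held 96114 of these reads in KH-CB19 (9.58%) and 107292 in DMSO (8.34%). An intron of 11 of 12 stem cell marker genes was in the table, with Sox2 the exception, which has no intron row here, and none of these introns was a member. The introns of these 11 genes had summed means of 8493.5 reads in KH-CB19 and 12073.5 in DMSO. Of 12 fibroblast markers only Fn1 had introns in the table, with summed means of 2562 reads in KH-CB19 and 3265.5 in DMSO. Of 14 germ layer and trophoblast markers none had. A gene without an intron in the table may still be expressed, so its absence is not read as absence of expression. Members made up between 1.74% (chromosome 19) and 4.06% (X) of a chromosome's introns.

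Read counts of members were modest. The median observed mean was 43 reads in KH-CB19 and 53 in DMSO, and the median ratio of observed to expected was 2.94 in KH-CB19 and 2.85 in DMSO (log2 1.55 and 1.51). Introns with 2 h values had median ratios of 3.52 in KH-CB19 and 3.56 in DMSO. The ratios chose the members, so they are a description. In the authors' deposited table, 593 members (91.5%) were above expectation in KH-CB19 at an adjusted p below 0.05, against 27.6% of all introns with a value, and 620 (95.7%) were in DMSO, against 28.2%. Both groups passed 0.05 in 574 members (88.6%) in the authors' deposited table, where 26.1% of all introns did. At 0.01 both groups passed in 400 members (61.7%) in the authors' deposited table, against 18.7% of all introns. Because the rule used the same contrast, nothing is read from these shares. In all, 3279 introns met the 0 h limits, of which 2631 had 2 h values and 648 did not. When an adjusted p below 0.01 in both groups of the authors' deposited table was asked for as well, 2746 introns were left, of which 400 had no 2 h value.

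Length was not itself a limit of the rule. The minimum of observed reads was set per intron and not per kb, so the choice was not independent of length. With that minimum at 50 reads, the members' median length was 9206.5 bp. Only 2631 of the 3454 introns with 2 h values met the 0 h limits, so that set was not held to the same limits. Members were longer at the median than the introns with 2 h values. The median member was 5775 bp long, with quartiles of 3174 and 10496.5 bp and a range of 105 to 179223 bp. Introns with 2 h values had a median of 1562 bp and all introns of the table had 1946 bp. Longer than 5 kb were 371 members (57.3%), against 268 introns with 2 h values (7.76%) and 19.2% of the table. Longer than 10 kb were 173 members (26.7%), against 36 introns with 2 h values (1.04%) and 8.35% of the table. Among introns that met the 0 h limits, the share without 2 h values was 8.74% below 1 kb, 4.71% from 1 to 2 kb, 15.0% from 2 to 5 kb, 47.5% from 5 to 10 kb, 75.9% from 10 to 20 kb and 98.4% at 20 kb or more, where 63 of 64 lacked them. Beyond 2 kb the share was larger in each longer class. Introns are not replicates, so no test was made of this difference.

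**Figure D1:**
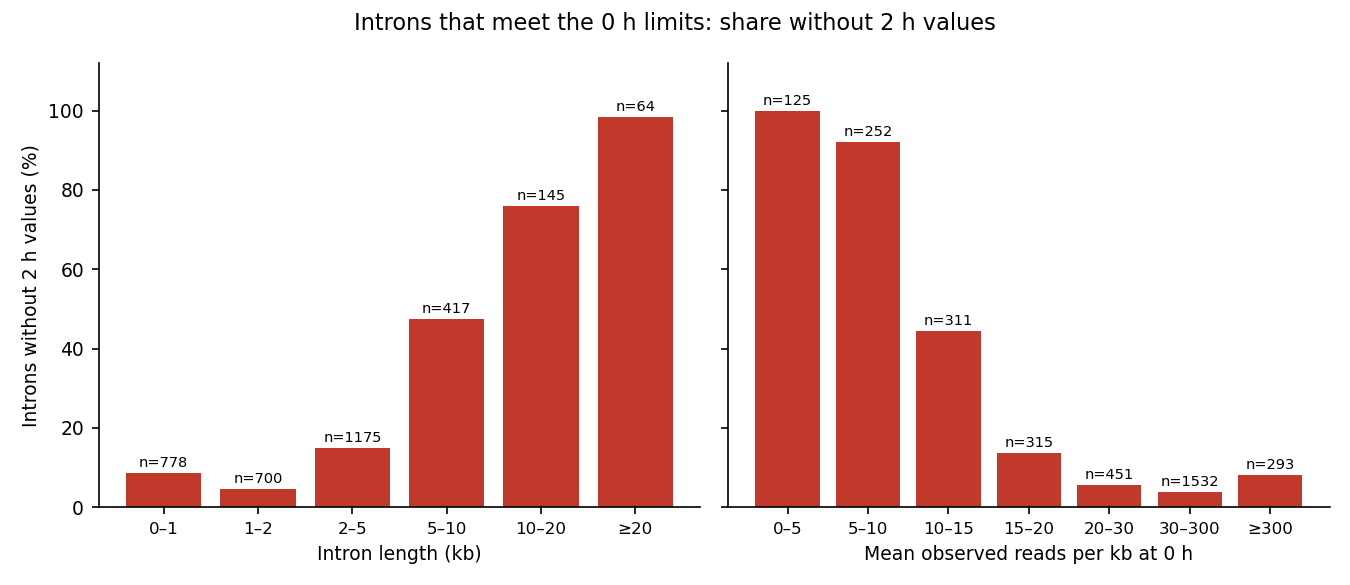
Share of introns without 2 h values (y axis, %) among the 3279 introns that met the 0 h limits, by intron length in kb (left) and by mean observed reads per kb at 0 h (right); n above a bar is the number of introns in the class. The share reaches 98.4% at 20 kb or more and 100% below 5 reads per kb, and has a small second peak of 8.19% at 300 reads per kb or more.

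Observed reads per kb of intron, averaged over both 0 h groups, had a median of 9.09 in members and 43.9 in introns with 2 h values. All 125 introns below 5 reads per kb that met the 0 h limits lacked 2 h values, as did 232 of 252 (92.1%) from 5 to 10, 44.4% from 10 to 15, 13.7% from 15 to 20, 5.54% from 20 to 30 and 3.98% from 30 to 300. At 300 reads per kb or more the share was 8.19%, or 24 of 293. The lowest value of any intron with 2 h values was 5.91 reads per kb. With the stricter threshold of 0.01 in both groups, shares in the same classes were 100%, 92.4%, 39.1%, 9.62%, 1.06%, 0.744% and 7.50%. Reads per kb rest on the same observed means as the rule, so the lower edge of the cloud of points follows from the minimum of 30 reads. Why the authors' class left these introns out is not given in the sources used here, and no cause was tested.

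**Figure D2:**
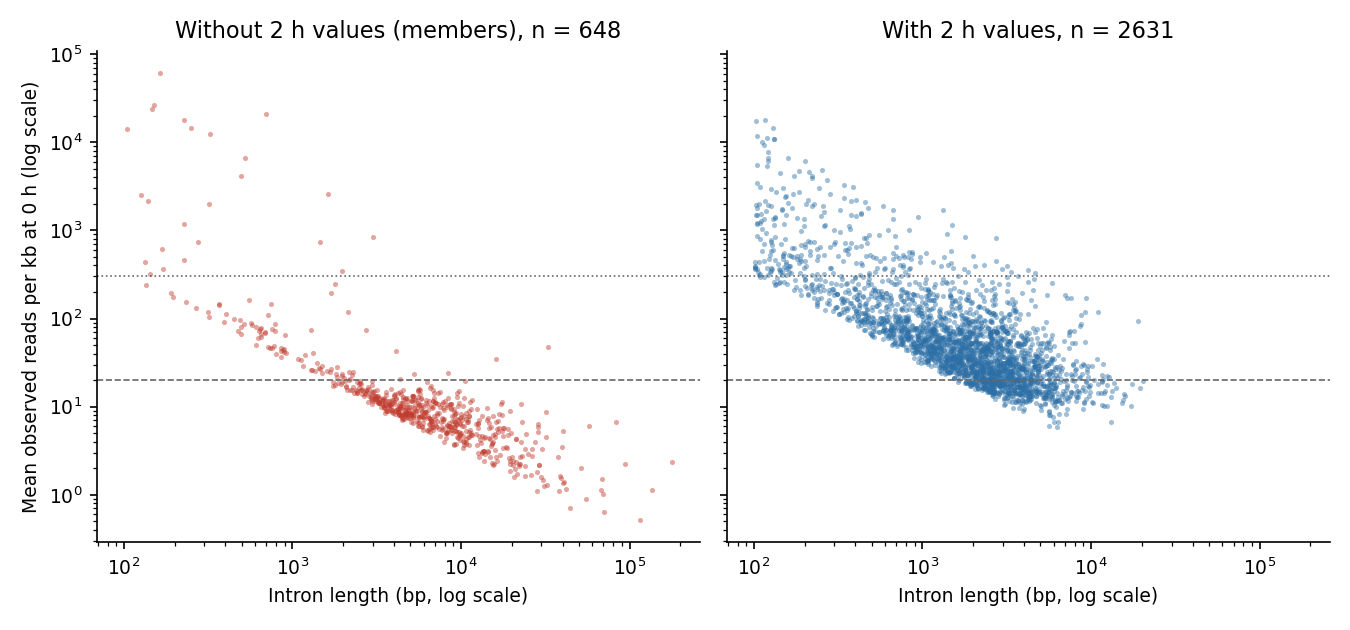
Mean observed reads per kb at 0 h (y axis, log scale) against intron length in bp (x axis, log scale) for the 648 members (left) and the 2631 introns with 2 h values that met the same 0 h limits (right); each point is an intron, and lines mark 20 (dashed) and 300 (dotted) reads per kb. Most members lie below 20 reads per kb at lengths of 1738 bp or more, and 24 lie above 300.

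By reads per kb the members fell into 3 unequal sets, with limits of 20 and 300 set after the values were seen, so the sets get no test. The sparse set, below 20 reads per kb, held 538 members (83.0%) with a median length of 6866.5 bp and 30.7% of the members' reads in KH-CB19 and 34.2% in DMSO. The middle set held 86 members (13.3%) with a median length of 870.5 bp. The dense set, at 300 or more, held only 24 members (3.70%) with a median length of 226.5 bp, and carried 62.6% of the members' reads in KH-CB19 and 58.1% in DMSO. Median ratios of observed to expected were 3.04 in KH-CB19 and 3.0 in DMSO in the sparse set, 2.37 and 2.22 in the middle set, and 3.88 and 3.77 in the dense set. An adjusted p below 0.01 in both groups of the authors' deposited table was reached by 365 sparse members (67.8%), 14 middle members (16.3%) and 21 dense members (87.5%). Of the introns with 2 h values and both means, 672 (19.6%) were sparse, 2449 (71.6%) middle and 301 (8.80%) dense.

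**Figure D3:**
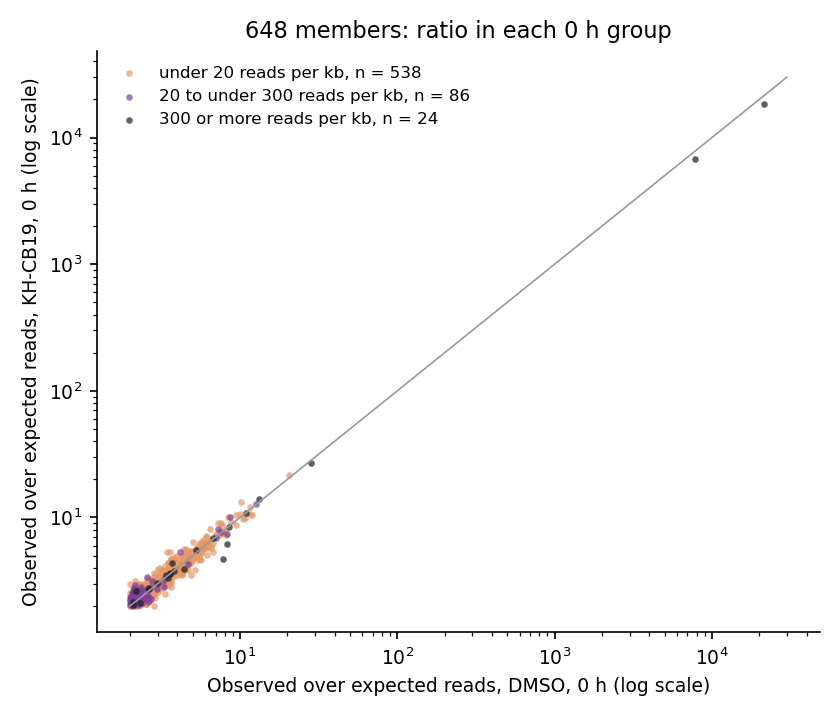
Ratio of observed to expected reads in KH-CB19 (y axis) against DMSO (x axis) at 0 h for the 648 members, both on log scales; each point is an intron, coloured by its set of reads per kb, and the line marks equal ratios. Points lie along the line, and the 2 dense introns at the upper right, in Nup93 and Slc25a5, have an expected mean of 0.5 reads.

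The highest observed mean was that of intron 21 of Hsp90ab1, a cytosolic chaperone, at chr17:45705495-45706188 (mm9; all intron positions below are mm9, numbered as the authors number them). Its authors' means were 15429 reads in KH-CB19 and 13391.5 in DMSO, with 5876 and 6135 expected. Other dense members, picked as examples from the 24, were introns of Actb (cytoplasmic actin), Rps15 and Rpl4 (ribosomal proteins), Eef1a1 and Eef2 (elongation factors), Gnb2l1 (a protein of the small ribosomal subunit), Ncl (nucleolin), Lgals1 (a galectin) and the cell cycle genes Cdc20 and Cdk4. Several of these genes have processed copies elsewhere in the genome, so their counts are uncertain: how reads that fit several places were counted is not given in the sources used here.

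Only 5 of the 24 dense members (20.8%) matched an intron of the same gene and length in GENCODE M21, against 515 of 538 sparse (95.7%) and 77 of 86 middle members (89.5%). For dense introns with 2 h values 150 of 301 (49.8%) matched, and for other dense introns 138, or 63.6%. All 5 matched dense members, in Tardbp, Taf1d, Actb, Chmp2a and Rangrf, lay wholly inside an exon of another annotated transcript of the gene. The same held for 104 of the 150 matched dense introns with 2 h values (69.3%) and 81 of the 138 others (58.7%). Members shorter than 500 bp matched in 50%, against 67.3% of introns with 2 h values and 87.5% of the others at that length. Whether reads of exons or of gene copies entered these introns was not tested.

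In 2 dense members the expected mean was 0.5 reads, so their ratios describe that floor rather than a size. Intron 6 of Nup93, a scaffold protein of the nuclear pore, at chr8:96747222-96747384 had authors' means of 9180.5 reads in KH-CB19 and 10653.5 in DMSO. Intron 3 of Slc25a5, the ADP/ATP carrier of mitochondria, at chrX:34336901-34337150 had 3410 reads in KH-CB19 and 3882 in DMSO. Neither intron matched the annotation. The other members with the largest ratios at an expected mean below 10 were smaller. Npat intron 14, in a coactivator of histone genes, had 53.5 reads against 2 expected in KH-CB19 and 70.5 against 2.5 in DMSO. Rapgef6 intron 26 had 43.5 against 2 in KH-CB19 and 51 against 2.5 in DMSO, and Sbf2 intron 28 had 66 against 5.5 and 81 against 7. In 125 members the expected mean was below 10 in at least 1 group.

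With at least 10 expected reads in both groups, 11 of the 12 members that led by the smaller of their 2 ratios are described here. Ncl, whose protein nucleolin works in ribosome assembly, had 4762 reads in KH-CB19 and 3342.5 in DMSO in intron 7 at chr1:88253206-88253531, which is 13.9 and 13.2 times the expected mean. Intron 2 of Gphn, the scaffold protein gephyrin, at chr12:79444418-79477346 had 1197.5 reads in KH-CB19 and 1943 in DMSO, or 12.7 times expected in both. Its adjusted p in the authors' deposited table was nevertheless 0.208 in KH-CB19 and 0.206 in DMSO. Tardbp encodes TDP-43, an RNA-binding splicing regulator. Its intron 18 at chr4:147991153-147991674, in the 3′ UTR of the matched transcript, had 2984 reads in KH-CB19 and 3971.5 in DMSO, 10.9 and 11 times expected. The rule asked for the excess in both groups and these introns were ranked by it, so their likeness between groups is no result.

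Long, sparse introns made up part of the same group. Intron 24 of Hdac4, a class IIa histone deacetylase, spanned 11213 bp with 87 reads in KH-CB19 and 88 in DMSO, 8.70 and 7.65 times expected. Dlg1, a scaffold protein of cell junctions, had 85 reads in KH-CB19 and 112.5 in DMSO in intron 23. Shorter members of this group were more densely read. Rbm26, an RNA-binding protein, had 290.5 reads in KH-CB19 and 362.5 in DMSO in its last annotated intron of 1699 bp. Qk, whose protein Quaking regulates splicing, had 150.5 reads in KH-CB19 and 249.5 in DMSO in intron 10, with ratios of 7.34 and 8.32. Intron 16 of Mtbp, named for binding MDM2, had 153 reads in KH-CB19 and 203.5 in DMSO. The remaining 3 were Anxa6 intron 20 (ratios of 6.91 in KH-CB19 and 7.0 in DMSO), Tcf25 intron 29 (8.43 and 8.52) and Trim28 intron 25 (6.87 and 6.75). Trim28 encodes the corepressor KAP1, which silences retroelements in embryonic stem cells.

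**Figure D4:**
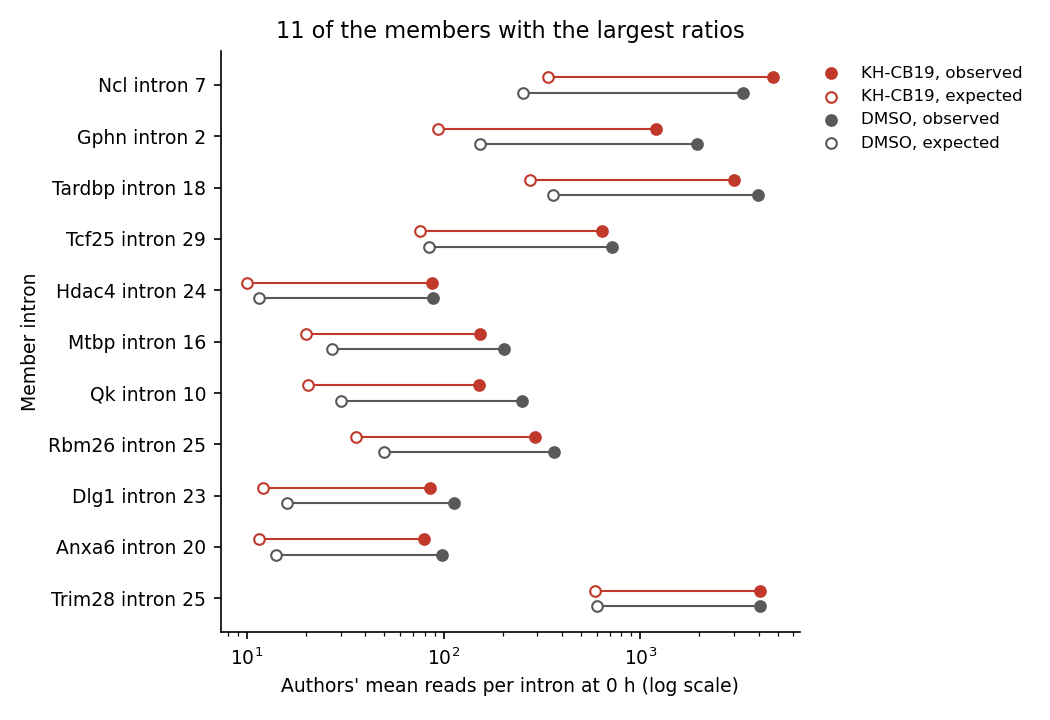
Authors' mean reads per intron at 0 h (x axis, log scale) for 11 members (y axis, 1 per gene) of the 12 with the largest ratios among those with at least 10 expected reads; filled points are observed and open points expected means, in KH-CB19 (red, upper) and DMSO (grey, lower). Observed means run from 79.5 reads in Anxa6 to 4762 in Ncl in KH-CB19. Every member had to exceed the expected mean in both groups to be chosen.

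The longest member was intron 6 of Btbd9 (179223 bp), a gene tied to restless legs syndrome in humans, with 492.5 reads in KH-CB19 and 349.5 in DMSO. Large intron 6, in a glycosyltransferase of dystroglycan, spanned 136133 bp with 130.5 reads in KH-CB19 and 175.5 in DMSO. Pard3 intron 2, in a cell polarity gene, spanned 115709 bp with 58 reads in KH-CB19 and 61.5 in DMSO, or 0.516 reads per kb over both groups, the lowest among members. The 3 shortest were Eef1a1 intron 7 (105 bp), Rpl4 intron 21 (127 bp) and Lsm4 intron 12 (134 bp). None of the 3 matched an annotated intron.

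In 5 genes 3 members qualified, and all 15 were sparse. Nav2, a neuron navigator gene, ranged most widely: intron 40 had 76 reads in KH-CB19 and 92 in DMSO, 8.0 times expected in both, against ratios of 4.12 and 3.52 for intron 18 and 3.26 and 3.43 for intron 20. Ehmt1, a histone H3 lysine 9 methyltransferase, had 3 members close together in the gene, introns 20, 21 and 23, with ratios between 2.31 and 2.45 in KH-CB19 and between 2.34 and 2.39 in DMSO. Cwf19l2 had ratios of 2.32 to 2.50 in KH-CB19 and 2.14 to 2.70 in DMSO. Zranb3, an annealing helicase of replication stress, had ratios of 2.53 to 3.27 in KH-CB19 and 2.2 to 2.72 in DMSO. Nsf, the ATPase of membrane fusion, had ratios of 2.55 to 3.42 in KH-CB19 and 2.55 to 3.81 in DMSO.

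Of the 15 gene lists used, members were found in 14, and the shares of genes with a member were read beside 8.55% of all genes in the table. A gene with more introns in the table has more introns that could qualify, and the lists differ in this. The shares of genes do not take it into account. Among splicing genes the members differed in count. Of 37 SR and related genes 2 had a member (5.41%), and of 27 hnRNP and FET genes none had. Scaf8, whose protein binds the tail of RNA polymerase II, had 214 reads in KH-CB19 and 195 in DMSO in intron 5, 6.29 and 5.57 times expected. Of 62 core spliceosome genes 4 had a member (6.45%): Prpf6, Ddx23, Smu1 and Lsm4. Of 35 other splicing regulators 7 did (20%): Tardbp, Qk, Rbm26, Esrp1, Sfpq, Rbm6 and Rbfox2. They held 8 members among the 184 introns of that list, where 2.92% of all introns in the table were members. Sfpq, a paraspeckle protein, had 2179.5 reads in KH-CB19 and 2933 in DMSO in intron 14. Of the 13 genes in the list named splicing kinases 2 had a member (15.4%). These were Cdk13 intron 7, with 61 reads in KH-CB19 and 87.5 in DMSO, and Hipk2 intron 2, which spans 70232 bp. Neither is a Clk gene.

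RNA surveillance genes had a member in 4 of 26 (15.4%). They were Xrn1 and Xrn2, the cytoplasmic and the nuclear 5′ to 3′ exonuclease, and Smg6 and Upf1 of nonsense-mediated decay. Xrn2 intron 29 had 110 reads in KH-CB19 and 164 in DMSO, 4.78 and 4.97 times expected. Cleavage and polyadenylation genes had one in 2 of 26 (7.69%), Fip1l1 and Cpsf3. Ribosomal proteins and translation factors had 7 of 115 (6.09%), snoRNA host genes 8 of 78 (10.3%) and genes with many near-identical copies 8 of 53 (15.1%). The median length of the members was 346 bp in the list of genes with near-identical copies, against 40648 bp for the kinases.

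Chromatin regulators had a member in 12 of 63 genes (19%) and DNA damage genes in 9 of 42 (21.4%). Counted by intron, 15 of 331 chromatin introns and 9 of 250 DNA damage introns were members, against 648 of 22228 in the table. Setd2, the histone H3 lysine 36 methylase, had 65.5 reads in KH-CB19 and 87 in DMSO in intron 22, with ratios of 5.24 and 5.61. Prkdc, the catalytic subunit of DNA-dependent protein kinase, had 31.5 reads in KH-CB19 and 47.5 in DMSO in intron 49, with only 3 and 4 expected. Rad50 and Mre11a of the MRN complex, Xrcc5 (Ku80), Trp53bp1, Brca2, Rev1, Lig1 and Ercc6 made up the rest of the second list. Cell cycle and replication genes had a member in 5 of 54 (9.26%), nuclear pore and transport genes in 4 of 50 (8.0%) and pluripotency genes in 2 of 34 (5.88%). In the last list these were Trim28 and Nr5a2, a nuclear receptor that can act at the Pou5f1 promoter.

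**Figure D5:**
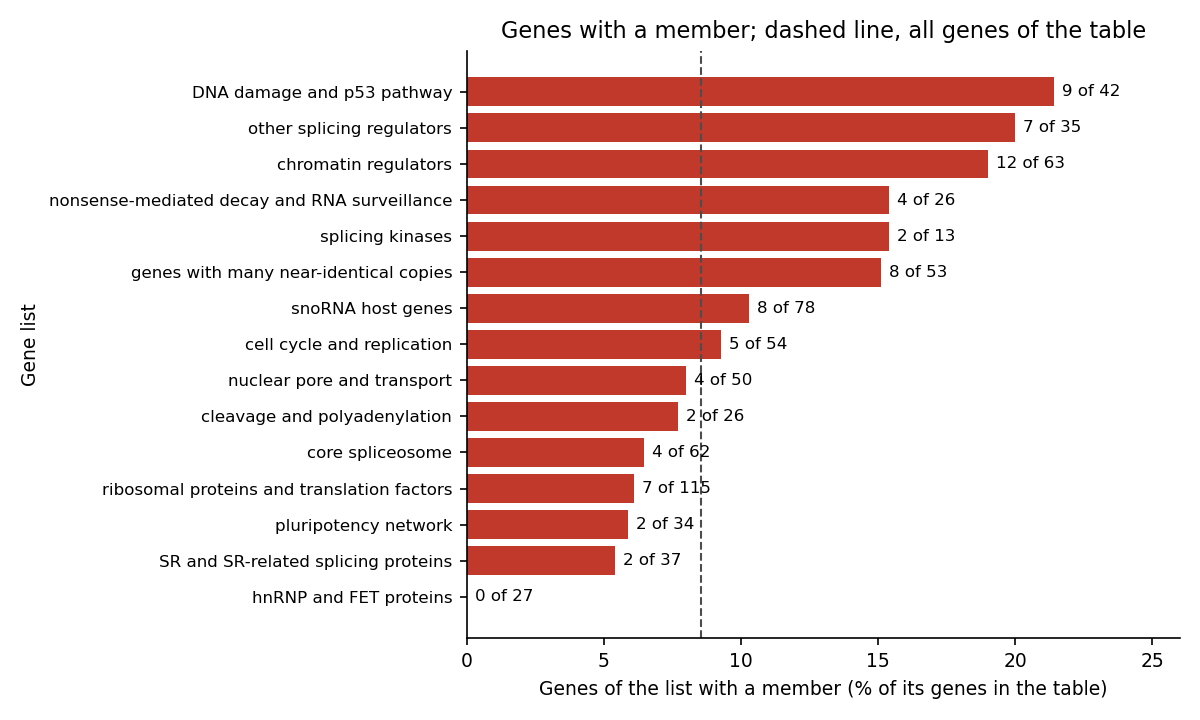
Share of the genes of each list (y axis) that hold a member, in % of its genes in the table (x axis); the label gives genes with a member of genes in the table, and the dashed line marks 8.55% for all genes. DNA damage genes (21.4%), other splicing regulators (20%) and chromatin regulators (19%) lie highest, and no gene of the hnRNP and FET list had a member. Genes differ in their number of introns in the table, which these shares do not take into account.

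The annotation placed 578 of the 597 matched members (96.8%) between coding exons, 9 in a 5′ UTR, 7 in a 3′ UTR and 3 in a non-coding transcript. A member contained a whole exon of another transcript of its gene in 122 cases (20.4%), against 10.3% of introns with 2 h values and 11% of the table. From 5 to 10 kb these shares were 24.7% of members, 21.8% of introns with 2 h values and 17.7% of the other introns. Above 10 kb the order was another, with 26.8% of members, 36.4% of introns with 2 h values and 32.9% of the others. Members lay wholly inside another transcript's exon in 20 cases (3.35%), against 17.2% of introns with 2 h values and 9.03% of the table. Below 2 kb the same shares were 22.4% of members, 27.5% of introns with 2 h values and 14.8% of the others.

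An intron's position was counted as its number divided by the number of introns in the matched transcript. It was above 0.5 in 71.5% of members, 77.5% of introns with 2 h values and 62.9% of the table. Matched members thus lay late in the transcript more often than all introns, and less often than introns with 2 h values. The matched transcript can be a short one: Nav2 intron 18 counted as 2 of 2, and Nav2 intron 20 as 20 of 39. The difference from the other introns was present in each length class. The shares for members and other introns were 72.4% and 66.5% below 2 kb, 81.4% and 59.4% from 2 to 5 kb, 71.1% and 49.6% from 5 to 10 kb, and 61.6% and 40.7% above 10 kb. Introns with 2 h values had 77.9%, 77.9%, 72.7% and 75.8% in these classes, the last from 33 introns. The part of position along the gene in the expected counts was not tested.

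Nested genes were searched in matched members only. Not searched were 19 dense members without a match, among them introns of the snoRNA host genes Ncl, Rpl4 and Gnb2l1. The matched members that hold snoRNA or miRNA genes were named after their values were seen. They had ratios of 2.09 to 4.07 in KH-CB19 and 2.0 to 3.72 in DMSO. Mcm7 intron 17 (748 bp), which holds the 3 miRNA genes shown above, had 94.5 reads in KH-CB19 and 124 in DMSO, 2.66 and 2.30 times expected. Ppp1r10 intron 3 had 38.5 reads in KH-CB19 and 73.5 in DMSO. Taf1d intron 18, with 3 snoRNA genes, had 902 reads in KH-CB19 and 1256 in DMSO, 2.72 and 2.63 times expected. Tsr1 intron 11 had 41 reads in KH-CB19 and 56.5 in DMSO, and Wdr43 intron 13 had 85.5 and 105.0. Tex14 intron 2 (40458 bp), which holds the U3 genes Rnu3b1 to Rnu3b4, had the largest ratios of these, 4.07 in KH-CB19 and 3.72 in DMSO. The others were introns of Tcp1, Iars, Gtf2a1 and Fbxo3, with ratios of 2.09 to 3.72 in KH-CB19 and 2.0 to 3.68 in DMSO. Same-strand genes of the types snRNA, misc_RNA or rRNA, counted together, lay inside 5 matched members (0.838%). The same held for 5 introns with 2 h values (0.167%) and 0.268% of the whole table. Members were longer at the median, and these shares were not split by length. The ratios of these 5 members ran from 3.64 to 9.89 in KH-CB19 and from 3.0 to 10.7 in DMSO. The upper ends belong to Mtor intron 56 (3155 bp), in the gene of the mTOR kinase, which holds Gm23318 and had 44.5 reads in KH-CB19 and 53.5 in DMSO. Its expected means were 4.5 in KH-CB19 and 5 in DMSO. The part of small RNA reads in all these counts was not tested.

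The 0 h values of both groups chose the members, which left out introns that met the limits in 1 group alone, so the differences between the groups at 0 h are a description. After subtraction of the median of all introns, their median KH-CB19 to DMSO log2 ratio of observed reads was 0.03 (SD 0.25 across introns), against -0.04 (SD 0.30) for introns with 2 h values. Single members spread from -1.23 to 0.83. Highest were Ncl intron 7 (0.83), Btbd9 intron 6 (0.82), Nr5a2 intron 3 (0.79) and Rps15 intron 7 (0.71). Nr5a2 had 41.5 reads in KH-CB19 and 30 in DMSO, and Rps15 had 3946 and 3023.5. Lowest were Ppp1ca intron 15 (-1.23), Rpl4 intron 21 (-1.21), Eef1a1 intron 7 (-0.85) and Picalm intron 15 (-0.84). Ppp1ca, a catalytic subunit of protein phosphatase 1, had 151.5 reads in KH-CB19 and 444.5 in DMSO, and Rpl4 had 164.5 and 474.5. Of these 8, 5 were dense introns shorter than 500 bp. In all 8 the expected mean differed between the groups in the same direction as the observed mean. Observed to expected ratios in KH-CB19 and DMSO were 13.9 and 13.2 in Ncl and 2.77 and 2.72 in Btbd9. They were 5.53 and 4.62 in Nr5a2, 5.58 and 5.26 in Rps15, and 6.18 and 8.31 in Ppp1ca. In Rpl4 they were 4.7 and 7.78, in Eef1a1 2.76 and 2.60, and in Picalm 2.0 and 2.84. Both groups are labelled 0 h, so how long KH-CB19 had acted on the cells is not known here. The replicate spread behind the group differences is unknown, so an action of KH-CB19 cannot be told apart from differences between libraries. Nor can fewer transcripts be told apart from faster removal of an intron.

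At 2 h the members have no value, so only other introns of their genes could be read. Of the 600 genes, 162 (27.0%) also held an intron with 2 h values, against 35.3% of the 6416 other genes, although the member genes had a median of 3 introns in the table and the others 2. By the rule each member gene holds at least 1 intron without a 2 h value, which was not asked of other genes, so nothing is read from these shares. Those 162 genes held 240 such introns. Of the 240, 16 (6.67%) were higher in KH-CB19 than in DMSO at an adjusted p under 0.05 in the authors' deposited table, against 5.47% of all introns with 2 h values, and 10 (4.17%) were lower, against 4.17%. These shares are near those of all introns. Introns higher in KH-CB19 carry the word "Less" in the authors' response column, and lower ones "More".

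The authors' normalised means at 2 h show some of the changed introns of the member genes. Myo10 intron 44, in a myosin of filopodia, rose to 269 in KH-CB19, against 50.9 in DMSO, a log2 ratio of 2.40 with an adjusted p of 2.06e-18 in the authors' deposited table. Macf1 intron 94, in a crosslinker of actin and microtubules, fell to 18.8 in KH-CB19, against 95.2 in DMSO, with a log2 ratio of -2.34 and an adjusted p of 8.88e-09 in the authors' deposited table. Rbm6 intron 20 (log2 1.14) and Xrcc5 intron 25 (1.19) were also higher, and Ep400 intron 47 (-1.43) and Mtbp intron 19 (-1.39) lower. In Xrcc5 the member is the neighbouring intron 24, with 3.81 times the expected reads in KH-CB19 and 3.78 times in DMSO at 0 h. Zranb3, which has 3 members, was higher in intron 18 at 2 h, with 73 in KH-CB19 and 28.3 in DMSO. All of these were chosen after their values were seen.

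At the limits of the rule the values ran on without a gap. Just inside the 2-fold limit, 2310003L22Rik intron 9 had 35 reads against 17.5 expected in KH-CB19, Aggf1 intron 8 had 34 against 17 in DMSO, and Eefsec intron 5 had 43 against 21.5 in KH-CB19. Just outside it, Katna1 intron 7 had a ratio of 2.36 in KH-CB19 and 1.99 in DMSO. Armc1 intron 4 had 2.1 in KH-CB19 and 1.99 in DMSO, and Upf3a intron 5 had 1.99 in both. Fundc2 intron 3, Hmmr intron 13 and St6galnac2 intron 4 had exactly 30 reads in KH-CB19, while the nearest introns outside, in AI848100, Rbm33 and Xylb, had 29.5. Xylb intron 3 had 4.54 times the expected reads in KH-CB19 and 5.39 times in DMSO and still fell outside.

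In 9 members neither group passed 0.05 in the authors' deposited table. For 7 of them the smaller of the 2 ratios lay between 2.03 and 2.22 with 30 to 54.5 reads in KH-CB19. The other 2, Gphn intron 2 and Camk1d intron 2, were of another kind, with high counts in long introns. Camk1d encodes a calmodulin-dependent kinase. Its intron of 82942 bp had 357.5 reads in KH-CB19 and 766.5 in DMSO, 2.77 and 2.80 times expected, with adjusted p-values of 0.481 and 0.522 in the authors' deposited table. Their ratios and counts are as large as those of members that passed, but the spread between the 2 libraries is not in the values used here.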

How the data were processed

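RNA of 8 treated libraries in 4 groups of 2 was summarised by the authors in a table of introns. The submitters' processing notes name mouse build mm9 and, in no order, DESeq, Cufflinks 2.1.1, TopHat2 2.0.9, Bowtie 1.0.0, bedtools 2.17.0 and SAMtools 0.1.19. Settings, and how introns, expected counts and the detained class were made, are not given in the sources used here.

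Per the file headers, the authors deposited observed and expected mean read counts at 0 h, their log2 ratios and adjusted p-values. The 0 h means come in steps of 0.5, which is what averaging 2 whole counts gives. At 2 h the authors deposited normalised mean signal, a log2 ratio and an adjusted p-value, for the introns classed as detained alone. A word for low coverage replaces the 0 h values of 3488 introns in KH-CB19 and 660 in DMSO. No total per library is in the table, so depth is known from the summed means alone, and precision cannot be given.

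The rule, ratios, reads per kb and shares were computed with pandas 2.3.3, and figures used matplotlib 3.10.9. Simulated data were used to check the choice of members and the reads per kb in DMSO, and not the ratios or shares. The files' starts count from 0 and were printed from 1. Introns were matched to GENCODE M21 (GRCm38) by gene, strand and equal length, with no conversion of coordinates. Of 22228 introns 20511 matched. Where a gene had enough matches to give a shared difference in start, those over 1000 bases from it were dropped, 9 in all. In genes with fewer matches this check was not made. In total 20502 were kept.

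Named introns followed a rule: the 12 largest ratios with at least 10 expected reads, the 5 largest below that, the 5 highest means, the 3 on either side of each limit, the genes with the most members (5 were tied), up to 3 per gene list, the 3 longest and 3 shortest, and the 4 extreme differences in each direction. The rule, the members and the 15 lists were chosen with earlier results of these data known. Members that hold small RNA genes, that passed 0.05 in neither group or that are dense, and the introns at 2 h, were named after their values were seen. Some results are not reported here.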

Additional observations from a re-analysis of the deposited data

How the results depend on the processing

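The number of members depends on the limits of the rule. It was 1350 with a minimum of 20 reads, 240 with 50, 1602 at 1.5 times the expected mean, 284 at 3 times and 1199 with the DMSO group alone, against 648. It stayed within 1.5 times at 819 with the KH-CB19 group alone and at 523 with at least 10 expected reads. With a minimum of 50 reads, 231 members passed 0.05 in both groups of the authors' deposited table, the median length was 9206.5 bp and 57 member genes held an intron with 2 h values (24.6%); at 3 times the expected mean 62 genes did (22.5%). The percent of members below 20 reads per kb was 91.3 among those past 0.01 in both groups, an alternative added after the data were seen. The counts follow from how many introns each limit admits; for the median length and the percentages the cause was not tested. The median log2 ratio of members lay between 1.13 and 1.55 in KH-CB19 and between 1.18 and 1.51 in DMSO over the pseudocounts of 1 and 10, none, and, for DMSO, the minimum of 10 expected reads. The median KH-CB19 to DMSO difference was 0.04 when centred on expected means and -0.0068 with a pseudocount of 10, so its sign is not stable. No paired analysis was possible because the table holds group means and no library values, which also kept libraries from being left out in turn.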

Other observations

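Nested genes other than small RNAs were also found inside members. On the same strand, a gene that was neither a small RNA nor a pseudogene lay inside 26 matched members (4.36%). The same held for 20 introns with 2 h values (0.666%) and 1.17% of the table. No length limit was set on such genes, and unconfirmed gene models (type TEC) were counted. A pseudogene lay inside 9 matched members (1.51%), against 10 introns with 2 h values (0.333%). Above 10 kb a same-strand gene that was neither a small RNA nor a pseudogene lay inside 9.76% of members, 9.09% of introns with 2 h values and 6.72% of the others. Lengths still differ within that class: members reach 179223 bp and introns with 2 h values 20257 bp. On the opposite strand, miRNA genes lay inside 3 members (0.503%), in Cdk13, Msi2 and Pign, against 1 intron with 2 h values (0.0333%) and 29 of the table (0.141%). The shares for pseudogenes and opposite-strand miRNA genes were not split by length. A transcript end of the same gene lay inside 28.1% of members, 27.2% of introns with 2 h values and 20.9% of the table. Library values are needed to say how far any of these members varies between replicates.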
